A study of Homo sapiens with 5 samples.

Results

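Keratins, vimentin and neurofilament subunits are the intermediate filament genes described here in HEK293, a widely cultured cell line of human embryonic kidney origin. The 10 genes were chosen from the family as those of interest in this line, with KRT81 included because it was absent from batch B. They are KRT8, KRT10, KRT18, KRT19, KRT81, VIM, NEFL, NEFM, NEFH and INA. Of the 10, 9 matched a row among the 24497 gene rows of the count table, and NEFH was not analysed here. Of those 9 rows, 8 had a count and KRT19 had none. The choice of the genes drew on counts of both batches, so their difference between batches is a description with no p-value.

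The 5 libraries fall into batch B with 3 and batch A with 2. The labels give the same untreated HEK293 line, medium with glutamine and fetal calf serum, and protocol for both. Each library carried material of 100 cells out of a lysate of 1000 cells, was primed with oligo-dT and selected for the 5' ends of transcripts. No label ties a library to a culture, so a p-value here reflects variation among libraries that may be technical. Libraries are named by the numbers that end the deposited columns. Gene counts were 373687, 575472 and 685181 in batch B libraries 1, 2 and 3, and 686883 and 803168 in batch A libraries 2 and 3. Spike-in counts were 13, 1 and 19 in the same batch B libraries, against 1785 and 2127 in the batch A libraries. The batches were thus not alike in spike-in counts, though the labels give the same protocol. Levels are in CPM, counts scaled to 1000000 gene counts per library. All 9 listed HEK293 markers with a row had counts, among them CDH2, the N-cadherin gene, at 84.8 ± 15.6 CPM in batch B and 85.3 ± 0.870 CPM in batch A (SD, n = 3 and 2).

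Intermediate filaments are rope-like polymers that give cells mechanical strength. Keratins assemble only as pairs of an acidic type I chain, such as KRT18, KRT19 or KRT10, with a basic type II chain, such as KRT8 or KRT81. Vimentin, a type III protein, polymerizes with itself and is typical of mesenchymal cells and of many cultured lines. Neurofilaments are type IV polymers of neurons, built from the light, medium and heavy subunits NEFL, NEFM and NEFH, with alpha-internexin (INA) as a further partner.

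KRT81 has a close relative in KRT86, a further type II hair keratin gene on the same chromosome, and reads of so similar genes may be hard to assign. Over the coding sequences of their principal transcripts in GENCODE release 29, KRT81 and KRT86 were 89.6% identical, against 61.8% for KRT8 and KRT81, which are both type II. Of the 1466 stretches of 50 bases in the KRT81 coding sequence, 721 (49.2%) occurred unchanged in KRT86. These values cover the whole coding sequence, whereas the libraries were selected for 5' ends. They do not measure how many of the reads were hard to assign. In the same annotation KRT86 also overlaps KRT81 on the opposite strand, and the sources used here do not say whether counting used strand.

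Because 5' ends were counted, the bases before the annotated start are shown for KRT10 and INA. RefSeq windows on build GRCh38.p14 matched 4 of the 10 genes, the others being VIM and KRT8. The KRT10 and INA windows had the lowest and the highest share of G and C among the 4. The KRT10 window is chr17:40822615-40822864 on the minus strand and the INA window is chr10:103276888-103277137 on the plus strand, each with the 250 bases before the start. Capitals mark 3 motifs searched on both strands. The TATA box was searched as TATAAA. The second motif, called the CAAT box, was searched as CCAAT. The GC box was searched as GGGCGG.
KRT10: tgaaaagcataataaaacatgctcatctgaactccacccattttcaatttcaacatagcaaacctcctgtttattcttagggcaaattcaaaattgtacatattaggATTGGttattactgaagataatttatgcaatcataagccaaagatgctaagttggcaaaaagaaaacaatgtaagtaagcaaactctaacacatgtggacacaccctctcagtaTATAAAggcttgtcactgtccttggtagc
INA: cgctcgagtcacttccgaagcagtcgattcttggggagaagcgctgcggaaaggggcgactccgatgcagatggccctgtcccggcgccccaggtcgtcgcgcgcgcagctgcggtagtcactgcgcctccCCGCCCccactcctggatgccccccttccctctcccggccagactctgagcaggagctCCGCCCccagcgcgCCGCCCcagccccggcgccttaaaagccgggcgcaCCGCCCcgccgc
The KRT10 window held 1 TATA box and 1 CAAT box, no GC box and no CG pair, with 34.8% G and C. The INA window held 4 GC boxes and 30 CG pairs, with 72.8% G and C, and neither of the other boxes. Over all 35116 windows of that length, 10.7% held TATAAA, 32.0% CCAAT and 42.6% GGGCGG. The AP-1 motif TGANTCA, present in 6.57% of all windows, was in neither window, and the E box CANNTG, present in 61.8%, occurred 3 times in the KRT10 window and 2 times in the INA window. Such matches describe letters and not bound sites.

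VIM, which encodes vimentin, was the most abundant of the 10 genes. It had 205, 288 and 343 counts in batch B libraries 1, 2 and 3, against 302 and 335 counts in batch A libraries 2 and 3. These counts were 549, 500 and 501 CPM in batch B and 440 and 417 CPM in batch A. All 3 batch B libraries lay above both batch A libraries. VIM averaged 517 ± 27.7 CPM in batch B and 428 ± 16.0 CPM in batch A (SD, n = 3 and 2), with a log2 fold change of 0.29 (SE 0.11), or 1.22-fold. By mean level VIM ranked 312 among the 24497 gene rows. In bulk libraries such as these, fewer cells with a transcript and less of it per cell cannot be told apart.

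VIM made up the larger part of the counts of the chosen filament genes. It took 60.5%, 61.7% and 59.1% of the counts of the 9 rows in batch B libraries 1, 2 and 3, against 56.2% and 54.4% in batch A libraries 2 and 3. The 9 rows together held 0.0855% ± 0.00484 of gene counts in batch B and 0.0774% ± 0.00105 in batch A (SD, n = 3 and 2). VIM-AS1, which is antisense to VIM, had 0, 0 and 1 counts in batch B against 2 and 3 counts in batch A, so reads on that row were few in either batch.

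**Figure D1:**
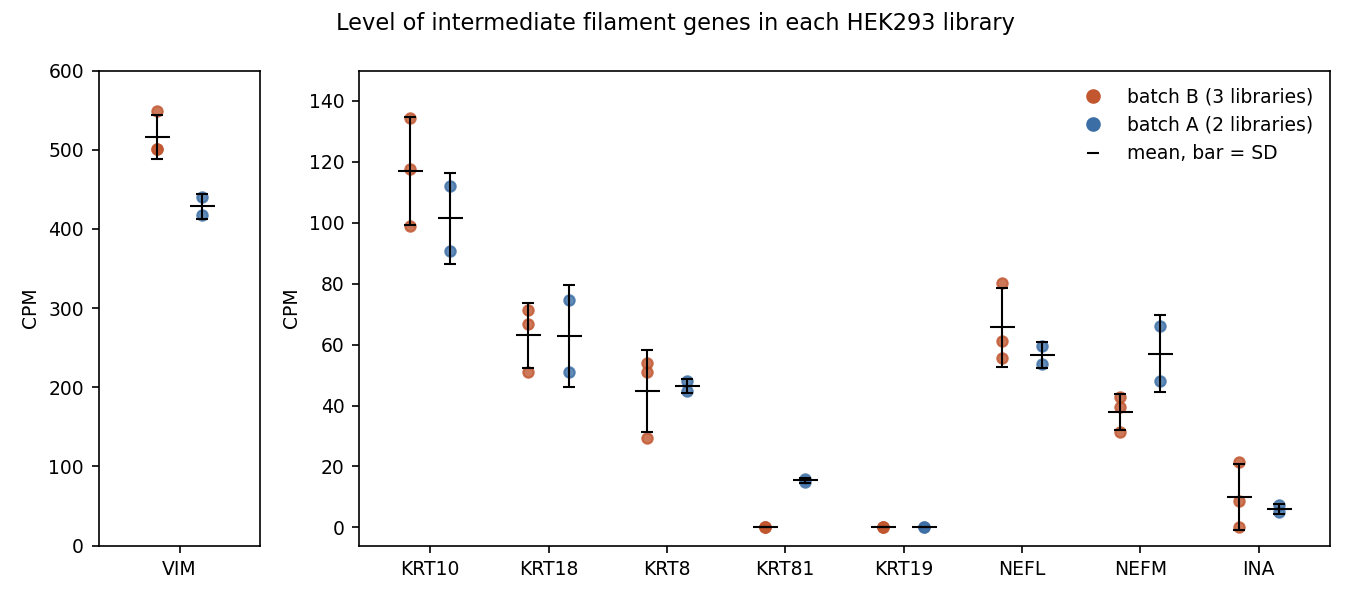
Level in CPM of VIM (left) and of the other filament genes (right) in each library, with batch B left of batch A, the mean as a line and the SD as a bar. VIM lies at 417 to 549 CPM, the next gene, KRT10, at 90.9 to 134 CPM, and KRT81 is at 0 in the 3 batch B libraries.

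KRT10, the type I keratin of the upper layers of the epidermis, was the most abundant keratin. Its counts were 44, 57 and 92 in batch B libraries 1, 2 and 3 and 77 and 73 in batch A libraries 2 and 3. The levels of 118, 99.0 and 134 CPM in batch B overlapped the 112 and 90.9 CPM in batch A. They averaged 117 ± 17.6 CPM in batch B and 101 ± 15.0 CPM in batch A (SD, n = 3 and 2), a log2 fold change of 0.25 (SE 0.17). TMEM99, a gene that overlaps KRT10 on the opposite strand, had 22, 48 and 49 counts in batch B against 65 and 69 counts in batch A, a log2 fold change of -0.29 (SE 0.20) that was not called (edgeR adjusted p = 0.512). How many reads of each row came from the other gene cannot be read from the counts.

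KRT18 and KRT8, the type I and type II chains that pair in simple epithelia, were next. KRT18 had 25, 41 and 35 counts in batch B libraries 1, 2 and 3, against 35 and 60 counts in batch A libraries 2 and 3. Its levels of 66.9, 71.2 and 51.1 CPM in batch B lay within the 51.0 to 74.7 CPM of batch A. The log2 fold change of KRT18 was -0.01 (SE 0.22). KRT8 had 11, 31 and 35 counts in batch B, against 33 and 36 counts in batch A. At 29.4 CPM batch B library 1 was the lowest, while the other libraries lay at 44.8 to 53.9 CPM. Its log2 fold change was 0.04 (SE 0.26). For this pair the batch means differed by less than the spread between libraries.

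The genes of the KRT8 and KRT18 pair overlap on opposite strands in GENCODE release 29. KRT8 took 30.6% and 43.1% of the counts of the pair in batch B libraries 1 and 2 and 35 of 70 counts in batch B library 3, against 48.5% and 37.5% in batch A libraries 2 and 3. The exact 95% binomial intervals of the 5 libraries overlapped, the lowest running from 16.3% to 48.1% and the highest from 37.8% to 62.2%. Pooled, KRT8 took 43.3% in batch B (35.9% to 50.9%) and 42.1% in batch A (34.4% to 50.02%). The pooled shares differed by less than their counting error. Intervals cover counting error only.

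Pseudogene copies of KRT8 and KRT18 are numerous and had few counts. The 18 KRT8 pseudogene rows had 4, 10 and 2 counts in batch B libraries 1, 2 and 3, against 2 and 9 counts in batch A libraries 2 and 3. The 19 KRT18 pseudogene rows had 1, 5 and 3 counts in batch B, against 4 and 6 counts in batch A. Over the 5 libraries they made up 15.6% of counts on KRT8 and its copies and 8.84% of counts on KRT18 and its copies. The rows of highest level were KRT8P12 with 9 counts, KRT8P44 with 8 counts and KRT18P15 with 5 counts in all. Whether these reads came from the copies or from the parent genes cannot be read from the counts. The shares cover only reads assigned to a row. How reads that match several genes were counted is not given, so the shares do not bound the uncertainty of the KRT8 and KRT18 levels.

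KRT81, a type II keratin of the hair shaft, had 0 counts in each of the 3 batch B libraries, against 11 and 12 counts in batch A libraries 2 and 3. In batch A this was 16.0 and 14.9 CPM. The batch A libraries were close to each other and far from those of batch B. Over batch A the 23 counts gave 15.4 CPM (exact 95% Poisson interval 9.78 to 23.2, counting error only). The 0 counts among 1634340 in batch B allow up to 1.84 CPM, taking 3 counts over the group as the limit. Against the batch A estimate of 15.4 CPM that limit makes KRT81 at least 8.41-fold lower in batch B, and against the lower end of the batch A interval at least 5.33-fold lower. The share of batch A would have given 25.2 counts in batch B. This absence was the reason for including the gene.

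The same counts in other rows are given as a description, since KRT81 was chosen for its 0 and the limits below were set by its own batch A counts. Of the 8029 gene rows with at least 11 counts in both batch A libraries, KRT81 was the 1 row with 0 counts over batch B, and the next lowest batch B sum was 8. Among the other 931 rows with batch A sums of 20 to 26 counts, the median batch B sum was 26 counts and the lowest was 3 counts. With at least 10 counts over batch A, 2 further rows had 0 over batch B. They were PGAM4, a retrogene related to PGAM1, with 4 and 6 counts in batch A, and RP11-71H17.9, with 3 and 7 counts. In the reverse direction 5 rows had at least 10 counts over batch B and 0 over batch A, led by the kinase gene LMTK3 with 15 counts and ETV5, an ETS transcription factor gene, with 14 counts.

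**Figure D2:**
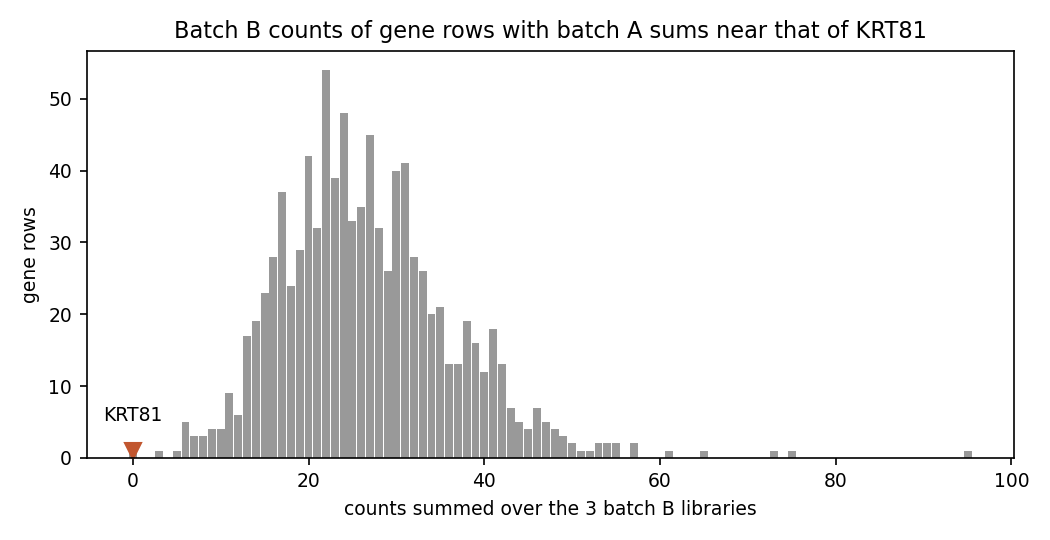
Number of gene rows (vertical axis) by their counts summed over the 3 batch B libraries (horizontal axis), for the 932 rows with 20 to 26 counts over batch A. The other 931 rows have a median of 26 counts, and KRT81, which was chosen for its 0, is marked by the triangle.

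The other hair and epidermis markers with a row had few counts or none. KRT86 had 0 counts in each batch B library, against 1 and 1 counts in batch A. Of the 20 hair and epidermis markers, 5 had a row, of which KRT9, KRT14 and KRT35 were at 0 in all 5 libraries. Their summed level was 0 to 3.48 CPM in batch B and 1.46 to 3.74 CPM in batch A, where KRTDAP, a gene of differentiating keratinocytes, held 2 counts in batch B library 2 and 2 counts in batch A library 3. Among other keratins, KRT7 held 1 count and KRT17 held 3 counts in all, each in 1 batch A library. Of 10 luminal breast markers 7 had a row, with ESR1 and TFF1 at 0 in all libraries. Of the 3 tested, 0 were called by edgeR, DESeq2 or limma-voom, with 0 at an unadjusted p under 0.05 by any of them. The edgeR share over all tested genes was 4.20%, and DESeq2 gave no adjusted p for 1 of the 3. The summed level of the luminal markers was 195 to 206 CPM in batch B and 219 to 234 CPM in batch A, mostly from XBP1 and GATA3. XBP1 is a transcription factor gene of secretory cells and was at 154 ± 6.18 CPM in batch B and 182 ± 6.75 CPM in batch A (SD, n = 3 and 2). XBP1 had a log2 fold change of -0.20 (SE 0.14, edgeR adjusted p = 0.506). GATA3, a transcription factor gene of luminal and other lineages, had 11, 18 and 28 counts in batch B and 25 and 24 counts in batch A, and FOXA1, a pioneer factor gene, had 7, 9 and 5 counts in batch B and 6 and 10 counts in batch A. The part of cells with these markers in the KRT81 counts was not tested.

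KRT19, the small type I keratin of simple and ductal epithelia, had 0 counts in every library. The 0 of 3124391 counts allow a level of up to 0.960 CPM over the 5 libraries. In single libraries the limit was 4.38 to 8.03 CPM in batch B and 3.74 to 4.37 CPM in batch A. Its neighbor KRT15, a type I keratin of basal epidermis, had 0 counts as well.

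The neurofilament light subunit gene NEFL was at a level like that of KRT18. It had 30, 32 and 42 counts in batch B libraries 1, 2 and 3, against 41 and 43 counts in batch A libraries 2 and 3. Levels were 80.3, 55.6 and 61.3 CPM in batch B and 59.7 and 53.5 CPM in batch A, and the batches overlapped. NEFL had a log2 fold change of 0.20 (SE 0.23).

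NEFM, the medium subunit gene, had 16, 18 and 27 counts in batch B libraries 1, 2 and 3, against 33 and 53 counts in batch A libraries 2 and 3. Its levels were 42.8, 31.3 and 39.4 CPM in batch B and 48.0 and 66.0 CPM in batch A. All batch B libraries lay below both batch A libraries, though batch B library 1 and batch A library 2 were close. NEFM averaged 37.8 ± 5.93 CPM in batch B and 57.0 ± 12.7 CPM in batch A (SD, n = 3 and 2), with a log2 fold change of -0.60 (SE 0.26). The value dropped in size to -0.36 when batch A library 3 was left out.

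INA, the gene of alpha-internexin, was low and varied between libraries. It had 8, 0 and 6 counts in batch B libraries 1, 2 and 3, against 5 and 4 counts in batch A libraries 2 and 3. The levels were 21.4, 0 and 8.76 CPM in batch B and 7.28 and 4.98 CPM in batch A. The 0 in batch B library 2 allows up to 5.21 CPM, and INA did not pass the filter on low counts. Its chi-square per degree of freedom within batches, which is about 1 when libraries differ by counting alone, was 4.15. That of the fitted genes other than KRT81 was 0.581 for VIM to 1.85 for KRT18, beside a median of 0.977 over all tested genes. The 0.00921 of KRT81 is too low to compare, since its divisor also counts batch B, where 0 counts add nothing.

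The balance between neurofilament subunits followed these values. NEFM took 34.8%, 36.0% and 39.1% of NEFL and NEFM counts in batch B libraries 1, 2 and 3, against 44.6% and 55.2% in batch A libraries 2 and 3. Pooled over libraries NEFM held 37.0% in batch B (29.6% to 44.8% by the exact 95% binomial interval) and 50.6% (42.8% to 58.3%) in batch A. The intervals overlap between 42.8% and 44.8%. INA took 7.82% (4.34% to 12.8%) of the counts of INA, NEFL and NEFM in batch B and 5.03% (2.32% to 9.33%) in batch A.

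**Figure D3:**
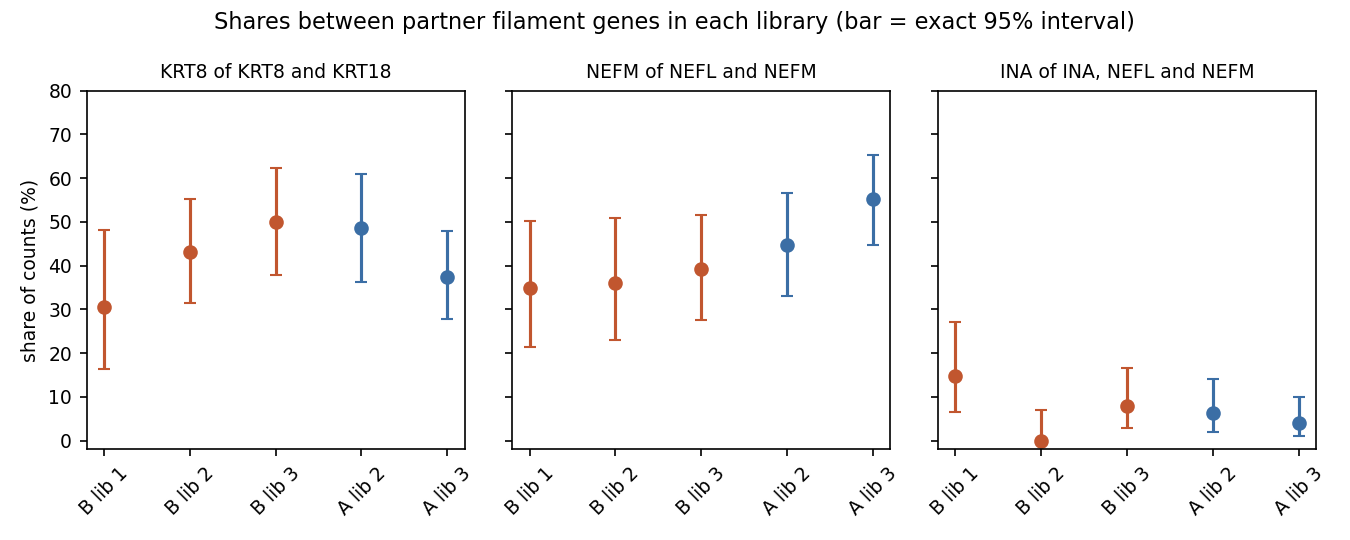
Share in percent of KRT8 in the KRT8 and KRT18 pair, of NEFM in NEFL and NEFM, and of INA in all 3 neurofilament genes, for batch B libraries 1 to 3 and then batch A libraries 2 and 3, with exact 95% binomial intervals. The KRT8 shares have intervals that overlap, with the lowest share at 30.6% in batch B library 1, and the NEFM shares are 34.8% to 39.1% in batch B and 44.6% and 55.2% in batch A.

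The levels of the filament genes fell into an order with several ties. Over the 5 libraries the mean was 481 CPM for VIM, 111 CPM for KRT10, 63.0 CPM for KRT18, 62.1 CPM for NEFL, 45.5 CPM each for NEFM and KRT8, 8.48 CPM for INA and 6.19 CPM for KRT81. The last 2 changed places between batches, with KRT81 at 0 and INA at 10.1 CPM in batch B, against KRT81 at 15.5 and INA at 6.13 CPM in batch A, so the mean of KRT81 describes neither batch. VIM was above KRT10, KRT10 above KRT18 and KRT8 above INA in 5 of 5 libraries. NEFL was above NEFM in 4 of 5. KRT18 was above NEFL, NEFM above KRT8 and INA above KRT81 in 2 of 5 each. NEFM and KRT8 were tied at 33 counts in batch A library 2, and INA and KRT81 at 0 counts in batch B library 2. In each of these 4 pairs the mean difference was smaller than its SD between libraries. For INA and KRT81 that SD includes their change of order between batches. Exact two-sided sign-flip tests over the 7 neighboring pairs gave p = 0.0625 where all 5 libraries had the same direction. That is the smallest p that 5 libraries allow, and it was 0.146 after Benjamini-Hochberg adjustment. The pairs were set by the means of these same libraries and no p under 0.05 was possible, so nothing is read from these tests. The assay counts 1 end per transcript, so these levels were not divided by length. Per kilobase of the principal transcript, an order added after the data were seen, VIM, KRT10 and KRT18 kept the first 3 places at 225, 52.2 and 40.3 CPM per kilobase. KRT8 followed at 21.4, above NEFL at 15.2 and NEFM at 11.3 CPM per kilobase, and KRT81 at 3.21 and INA at 2.63 came last, again over batches that differ in their order.

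Batch B was compared with batch A over all genes to give the background of these differences. By edgeR's quasi-likelihood test 387 of 9215 tested genes (4.20%) had a Benjamini-Hochberg adjusted p under 0.05. Of the filament genes 7 passed the filter on low counts, and KRT81, which passed it through batch A alone, was the 1 called, on the lower side, where 2.05% of tested genes were called. Nothing is read from that count, since the genes were chosen with this comparison known. The median log2 fold change of the 7 was 0.04, with KRT81 taken at its fitted value or at its limit of -3.07, beside 0.00 over all tested genes. VIM did not overlap between batches on the higher side, as did 13.5% of tested genes, and NEFM and KRT81 did not overlap on the lower side, as did 17.8%.

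**Figure D4:**
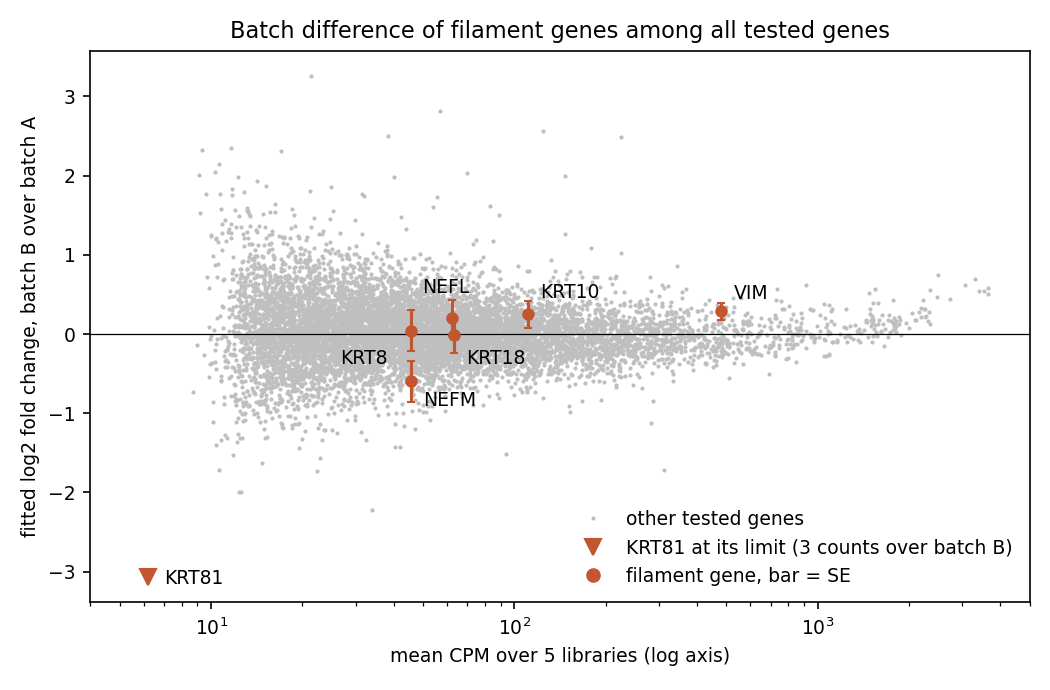
Fitted log2 fold change of batch B over batch A (vertical axis) against mean CPM on a log axis for the 9215 tested genes, with filament genes in orange and their SE as bars. VIM lies at 0.29, toward the upper side of genes of like level, and NEFM at -0.60, toward the lower side, and KRT81 is drawn at the limit of -3.07 that 3 counts over batch B would give.

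Among further filament genes the lamins, which form the filament mesh under the nuclear envelope, had the highest levels. Of 60 names, 19 had a row, and the 3 lamin genes were the ones tested. Of the 16 other rows, 9 had a count, with at most 9 counts over the 5 libraries, and 7 were at 0 in all libraries. LMNA, the gene of lamins A and C, had 28, 41 and 52 counts in batch B libraries 1, 2 and 3, against 27 and 40 counts in batch A libraries 2 and 3. At 74.0 ± 2.45 CPM in batch B and 44.6 ± 7.42 CPM in batch A (SD, n = 3 and 2), LMNA rose by 0.74 (SE 0.23, edgeR adjusted p = 0.0405) on the log2 scale. That call was lost in each of the 5 edgeR fits that left out a library (edgeR adjusted p up to 0.314), and also with DESeq2, library totals, no filter on low counts and thinning (adjusted p up to 0.561). LMNB2, the gene of lamin B2, had the highest level of this list, with 158 ± 9.95 CPM in batch B and 123 ± 15.8 CPM in batch A and was not called (log2 fold change 0.36, edgeR adjusted p = 0.179). The third, LMNB1, named after its values were seen, was at 0.66 (SE 0.49) and not called. The muscle filament gene DES was at 0 in all libraries.

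Of 13 tested genes of plakins, which tie filaments to other structures, and of desmosomes, to which keratins anchor, 0 were called by edgeR, DESeq2 or limma-voom. The edgeR share over all tested genes was 4.20%, so nothing is read from that 0. DESeq2 gave no adjusted p for 4 of the 13. By edgeR, 1 of the 13 had an unadjusted p under 0.05, as did 0 by DESeq2 and 1 by limma-voom. The median log2 fold change was 0.05, beside 0.00 over all tested genes. DSG2, a desmosomal cadherin gene, led with 195 ± 10.1 CPM in batch B and 189 ± 23.8 CPM in batch A, followed by PERP, a desmosome-associated membrane protein gene, at 109 ± 6.77 CPM in batch B and 110 ± 3.55 CPM in batch A (SD, n = 3 and 2). DSP, the gene of the desmosomal plakin desmoplakin and named after its values were seen, was at 106 ± 1.48 CPM in batch B and 108 ± 13.8 CPM in batch A. These 3 genes had counts in every library. Other rows of the list, named after their values were seen, did not. PPL and PKP3 were at 0 in all libraries, and ITGB4 had 0 counts in each batch B library, against 3 and 2 counts in batch A.

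Kinases, phosphatases, chaperones and turnover factors of filaments gave 3 genes that rose and 0 that fell among 34 tested, beside 2.15% of all tested genes called as higher. The list was chosen with earlier results of these data known, so nothing is read from that count. The median log2 fold change of the 34 was -0.04. HSPB1, the gene of the small heat shock protein HSP27, which binds filaments, had 125, 209 and 252 counts in batch B, against 164 and 199 counts in batch A. It rose by 0.58 (SE 0.11, edgeR adjusted p = 7.52e-05), at 355 ± 18.0 CPM in batch B and 243 ± 6.37 CPM in batch A. PRKACA, the gene of a catalytic subunit of protein kinase A, had 50, 75 and 90 counts in batch B, against 66 and 48 counts in batch A. It rose by 0.80 (SE 0.18, edgeR adjusted p = 0.000626). STUB1, a ubiquitin ligase gene, rose by 0.39 (SE 0.12, edgeR adjusted p = 0.0460). With DESeq2 0 of the 34 were called, 3 had an unadjusted p under 0.05 and 5 had no adjusted p. Over all genes DESeq2 called 41.

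These calls differed in how far they rested on 1 library. Without batch A library 3, PRKACA was at 0.46 and its call was lost (edgeR adjusted p = 0.353). The call of STUB1 held in 1 of the 5 fits that left out a library, and was also lost with library totals, no filter on low counts, limma-voom and DESeq2 (adjusted p up to 0.642). The call of HSPB1 held in all 5 and was lost with DESeq2 (adjusted p = 0.0644). HSPA8, the constitutive HSC70 chaperone gene and the most abundant of the list, was at 1006 ± 56.8 CPM in batch B and 1212 ± 105 CPM in batch A and was not called (log2 fold change -0.25, edgeR adjusted p = 0.229). YWHAE, a 14-3-3 protein gene, was at 865 ± 39.4 CPM in batch B and 830 ± 41.3 CPM in batch A and was not called. CRYAB, the gene of a filament-binding small heat shock protein, was at 0 in all libraries.

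**Figure D5:**
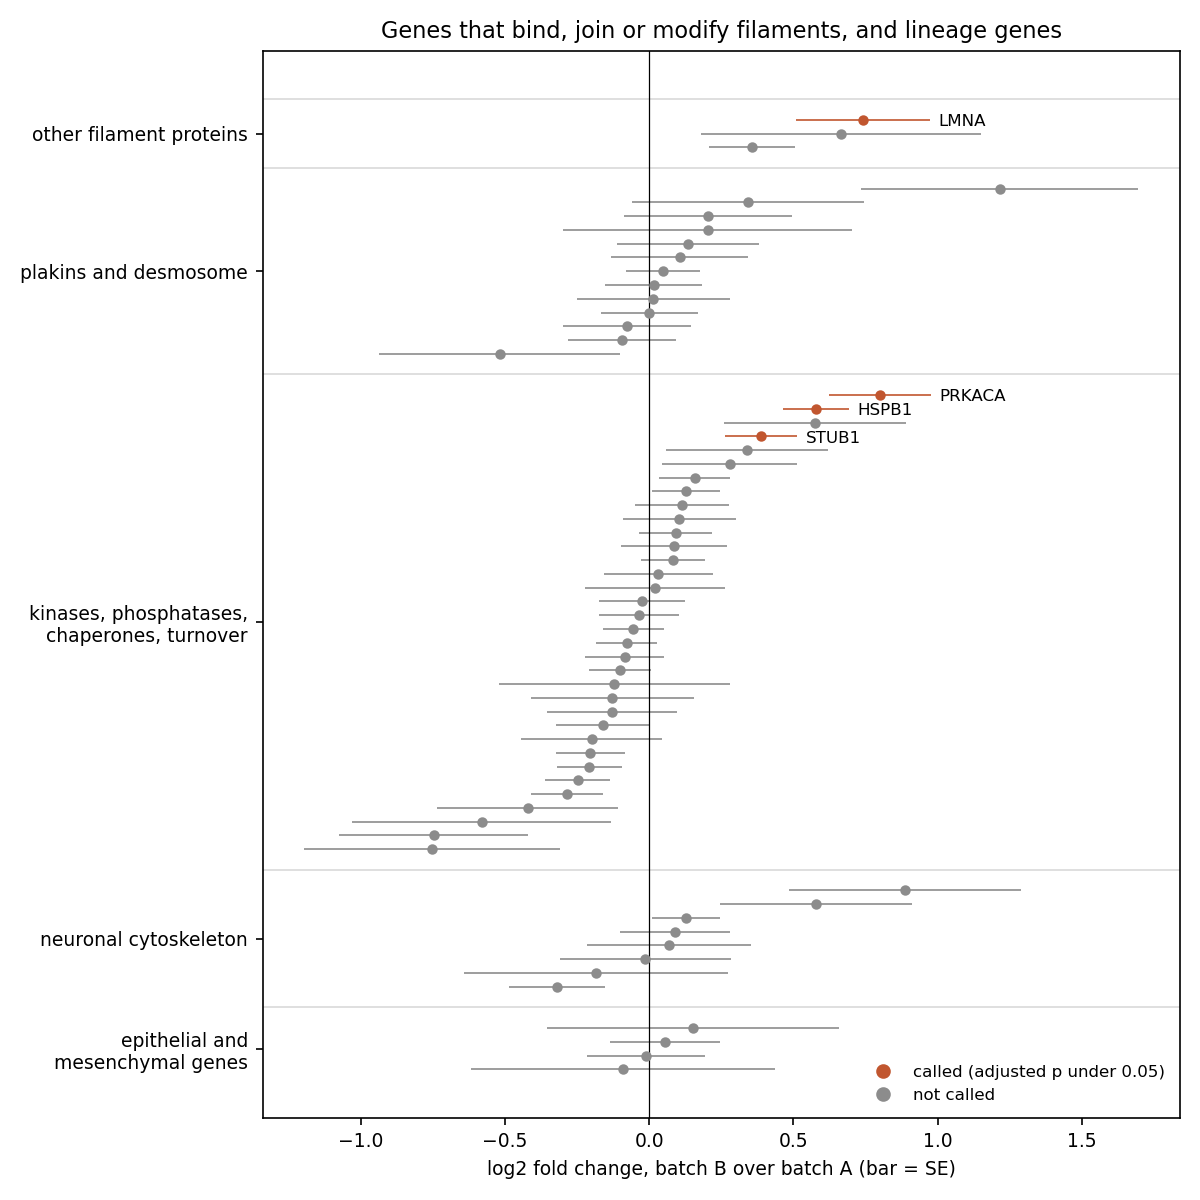
Log2 fold change of batch B over batch A with its SE (horizontal axis) for each tested gene of 5 lists, with called genes in orange. LMNA at 0.74 and the kinase, chaperone and turnover genes PRKACA, HSPB1 and STUB1, at 0.80 to 0.39, are the called genes, and all lie on the side of batch B.

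Epithelial and mesenchymal genes placed the keratin and vimentin levels beside other lineage genes. The epithelial genes CDH1, CLDN4 and GRHL2 were at 0 in all 5 libraries, while EPCAM, CLDN7, ESRP2 and OVOL2 had counts in some of them. OCLN, the gene of the tight junction protein occludin, had 1, 3 and 5 counts in batch B libraries 1, 2 and 3, against 6 and 10 counts in batch A libraries 2 and 3. These 8 genes were named after their values were seen. CDH2 was the most abundant of this list, and SPARC, a matrix protein gene, followed at 73.7 ± 17.2 CPM in batch B and 77.9 ± 1.01 CPM in batch A (SD, n = 3 and 2). The remaining mesenchymal genes of the list were far lower, and those given here were also named after their values were seen. The highest of them, ZEB2, had 5, 13 and 6 counts in batch B, against 11 and 9 counts in batch A. FN1 had 3, 8 and 7 counts in batch B and 7 and 10 counts in batch A. CD44 had 0, 2 and 2 counts in batch B and 0 and 2 counts in batch A. SNAI1 had 0 counts in each batch B library, against 1 and 5 counts in batch A. Of the 4 genes tested 0 were called by edgeR, DESeq2 or limma-voom, and 0 had an unadjusted p under 0.05 by any of them. The edgeR share over all tested genes was 4.20%, and DESeq2 gave no adjusted p for 2 of the 4. Of 6 fibroblast markers, COL1A2 and PDGFRB were at 0 in all libraries and the summed level was 13.4 to 24.8 CPM in batch B and 4.37 to 11.2 CPM in batch A, mostly from COL1A1, a collagen gene with 5, 4 and 13 counts in batch B and 3 and 9 counts in batch A, while LUM had 0, 2 and 2 counts in batch B and 0 and 0 counts in batch A. Their part in the VIM level was not tested. The blood marker rows reported here were CD3E at 0 in all libraries, HBA1 with 2 counts in batch B library 3 and LYZ with 1 count in batch A library 2.

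Of 8 tested partners of neurofilaments and genes of the neuronal cytoskeleton, 0 were called by edgeR, DESeq2 or limma-voom. The edgeR share over all tested genes was 4.20%, so nothing is read from that 0. DESeq2 gave no adjusted p for 3 of the 8. By edgeR 1 had an unadjusted p under 0.05, as did 0 by DESeq2 and 2 by limma-voom, and the median log2 fold change was 0.08. UCHL1, a neuronal ubiquitin hydrolase gene, had the highest level at 278 ± 16.2 CPM in batch B and 258 ± 7.61 CPM in batch A (log2 fold change 0.13, SE 0.12). CDK5, a kinase of neurofilament proteins, was at 96.3 ± 26.1 CPM in batch B and 126 ± 10.8 CPM in batch A (log2 fold change -0.32, SE 0.17, edgeR adjusted p = 0.320). Some rows of the list, named after their values were seen, were near 0. ELAVL3 and ELAVL4 had 1 count each, in batch A library 3. GAP43 had 0 counts in each batch B library, against 1 and 1 counts in batch A. MAP2 had 1, 4 and 0 counts in batch B, against 0 and 0 counts in batch A. MAP1B was higher, at 91.6 ± 6.47 CPM in batch B and 86.7 ± 2.93 CPM in batch A. Among the HEK293 markers IGF2BP1, an RNA-binding protein gene, rose by 0.60 (SE 0.13, edgeR adjusted p = 0.000783), and 7 of 8 tested were not called. Over all tested genes edgeR called 4.20%. The call of IGF2BP1 was lost with DESeq2, after thinning and, in edgeR, when batch A library 2 was left out (edgeR adjusted p = 0.140).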

How the data were processed

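RNA was measured by 5'-selective sequencing in 5 HEK293 libraries. The deposited table holds whole-number counts per gene with no normalization, made by the authors. The tools named per the submitters' processing notes are STAR 2.4.0a and cutadapt 1.2.1, and the builds hg19 and GRCh37. The sources used here do not give the counting tool, the annotation, the use of strand or any collapsing of molecular identifiers. Each column was matched to batch A or B through the start of its name, which the titles also carry, and 0 columns were left unused. Spike-in rows (52) were left out of totals and tests.

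The members and lists were chosen with earlier results of these data known, and 2 genes, left out of the lists, are not reported here. CPM is the count scaled to 1000000 gene counts. Batch B was compared with batch A in edgeR 4.0.16 (R 4.3.3) with TMM scaling, filterByExpr, batch as the only term and Benjamini-Hochberg adjustment over all 9215 tested genes, which hold 97.1% of gene counts. The prior degrees of freedom were infinite, so the spread was pooled over genes. SE was taken from the log2 fold change and F, as their ratio after a square root of F. Gene counts of 373687 to 803168 per library mean that 0 counts allow up to 3.74 to 8.03 CPM.

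Named are all members, the called genes of each list (up to 3 per direction) with the 2 of highest level, the 3 highest keratin pseudogene rows, and up to 5 rows with 0 counts in batch B and at least 10 in batch A. Alternatives were DESeq2 1.42.0 size factors and Wald test, library totals, limma-voom (limma 3.58.1), no filter, thinning and leaving out each library. Shares have exact Clopper-Pearson intervals. Coding sequences were aligned with Biopython 1.88. Transcripts and overlaps come from GENCODE release 29, on another build, so no positions of it are given.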

Additional observations from a re-analysis of the deposited data

How the results depend on the processing

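The number of called genes was 387 with edgeR (198 higher and 189 lower in batch B), 41 with the DESeq2 Wald test on the same genes, where 5820 had an adjusted p. Thinned to the depth of batch B library 1, the libraries gave 195 calls. The number was 138 to 333 when 1 library was left out, lowest without batch A library 2. Of the 72 tested genes of the lists, 5 were called, 0 with DESeq2 (5 at an unadjusted p under 0.05, and 19 with no adjusted p), 3 after thinning, 3 with no filter on low counts and 2 to 4 when a library was left out. DESeq2 size factors, library totals and limma-voom moved both numbers by less than 1.5 times, though not always for the same genes. With library totals LMNA and STUB1 were not called and HSPA8 was called as lower, and with limma-voom STUB1 was not called. The causes were not tested.

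Of 80 fitted log2 fold changes of the 7 filament genes under alternatives, 6 moved by more than 1 SD between libraries, 4 of them for KRT81, whose fitted value against 0 counts is no bound. VIM stayed at 0.23 to 0.35, NEFL at 0.07 to 0.30 and NEFM at -0.77 to -0.36. KRT8 at -0.08 to 0.19 and KRT18 at -0.22 to 0.30 changed sign in 3 and 4 of 12 alternatives, and KRT10 was at 0.00 after thinning. KRT81 passed the filter in 2 of the 5 fits that left out a library. Adding pseudogene and KRT86 counts to their relatives, chosen after seeing the data, gave KRT8 0.10 and KRT18 -0.03, and KRT81 kept 0 counts in batch B. No paired analysis was possible because the batch A columns end in 2 and 3 where the titles number its replicates 1 and 2. Beyond replicate numbers, no label ties a batch A library to a batch B library, so matching numbers would not have made pairs either. The planned order of levels per kilobase of RefSeq transcript was not run, as the RefSeq table used here gives gene spans, and GENCODE lengths took its place. Counts under 100 per library limit the precision of all filament genes but VIM.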

Other observations

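Keratin-associated protein genes, which encode the matrix around hair keratins, had 6 rows and were outside the lists. KRTAP19-1 had 5, 12 and 20 counts in batch B libraries 1, 2 and 3, against 7 and 2 counts in batch A libraries 2 and 3. KRTAP3-2 had 0, 7 and 0 counts in batch B and 0 and 0 counts in batch A, so all of its counts fell in 1 library. The other 4 rows had 1 count each.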
